A study of Homo sapiens with 8 samples.

Results

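Transfection of PANC-1 cells with miR-30c-5p or miR-30a-5p, guide strands that share 1 seed, was measured on 2 two-colour arrays out of the 8 arrays of the series. PANC-1 is an established human pancreatic carcinoma line. The 2 arrays were chosen by their titles and taken as 2 replicates of 1 seed. On each of them the Cy5 channel held RNA of PANC-1 cells transfected with the miRNA by Lipofectamine RNAiMAX. The Cy3 channel held RNA of PANC-1 cells that the labels call mock in one field and not transfected in another. All values below are log2 ratios of Cy5 over Cy3, so a value below 0 means a lower level with the miRNA. The other 6 arrays were built the same way: the passenger strands miR-30c-2-3p and miR-30a-3p were used in PANC-1, and the strands of miR-139 (5p and 3p) and of miR-143 (5p and 3p) in HCT116, a human colorectal cancer line. Dyes were not swapped on any array, so an effect of the dye on a gene, or of transfection itself, cannot be told apart from an effect of the miRNA within the 2 arrays. No label says whether the 2 arrays came from cultures grown apart, and with n = 2 the errors cover only the spread between these 2 samples, with the variance moderated by that of all genes. Dose and time of transfection are not given in the sources used here.

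A miRNA guide strand is loaded into an Argonaute protein and pairs with messenger RNAs mainly through its seed, the bases near its 5′ end, after which the messenger RNA is translated less and often degraded. The strands of the miR-30 family that are mostly used as guides share a seed, and the family is best known for holding back mesenchymal and pro-fibrotic genes in epithelial cells. The strands below are shown because the choice of the 2 arrays rests on their seed. Capitals mark bases 2 to 8, and the passenger strands on the other 2 PANC-1 arrays are printed for contrast (RefSeq sequences, GRCh38.p14).

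miR-30c-5p: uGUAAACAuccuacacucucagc

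miR-30a-5p: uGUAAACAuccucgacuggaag

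miR-30c-2-3p: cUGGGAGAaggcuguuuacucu

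miR-30a-3p: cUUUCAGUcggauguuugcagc

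The guide strand miR-30c-5p is encoded at chr1:40757300-40757322 on the plus strand (MIR30C1) and at chr6:71377003-71377025 on the minus strand (MIR30C2), and miR-30a-5p at chr6:71403595-71403616 on the minus strand (MIR30A). Their first 12 bases are identical, and position 13 is the first that differs. Over the 22 positions that can be compared, 17 are identical, so the strands differ only past the seed. Neither passenger strand shares the seed.

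The gene table had 20322 genes with a probe well above background in at least 1 channel on both guide arrays. All 5 markers of the line were detected, in each channel of each guide array, but not all were bright. Scanned intensities were 18190 to 39760 for VIM (vimentin, an intermediate filament), 14000 to 19840 for KRT19 (a duct keratin) and 14560 to 61710 for KRT18. KRT8 ranged from 3465 to 10190, and KRT7 was the dimmest of the 5, at 548 to 1137. Genes of other cell types were dim: the summed intensity over 10 acinar and endocrine markers was 217 to 244, that over 8 blood and endothelial markers 209.7 to 241, and that over 10 colon markers 487 to 615, of which EPCAM made up 203 to 306. Of these lists 1, 3 and 4 markers were well above background in both channels of both arrays (CELA3A; PTPRC, CD14 and CDH5; EPCAM, CDX1, CDX2 and LGALS4). In at least 1 channel of 1 array 5, 4 and 5 markers were so, and INS, GCG, CHGA and CD3E were so in Cy5 on both arrays. PRSS1, CPA1, PNLIP, PECAM1 and CDH17 were among those not so in any channel.

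To determine which genes moved with both guide strands, genes at least 2-fold away from mock in the same direction on each array were counted. Of the genes tested, 48 were at least 2-fold lower on both arrays (0.236%) and 54 at least 2-fold higher on both (0.266%), and no gene was 2-fold lower on one and 2-fold higher on the other. All 102 also passed limma with Benjamini-Hochberg adjustment over all genes. That test on its own was wide: it called 3111 genes lower (15.3%) and 3577 higher (17.6%), and 5388 of these 6688 genes had a mean log2 ratio within 0.5 of 0. Under median centring in place of loess, the median of all genes stood at 0.19, and the split became 530 lower against 9995 higher for the test and 15 against 284 for the 2-fold rule. Near the threshold, HIST1H1B (H1-5) was just inside at -1.25 and -1.004, AGR2 just outside at -1.15 and -0.998, NANOS1 just inside at 1.001 and 1.005, and IFNGR1 just outside at 0.995 and 1.25, with miR-30c-5p given first here and throughout.

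**Figure D1:**
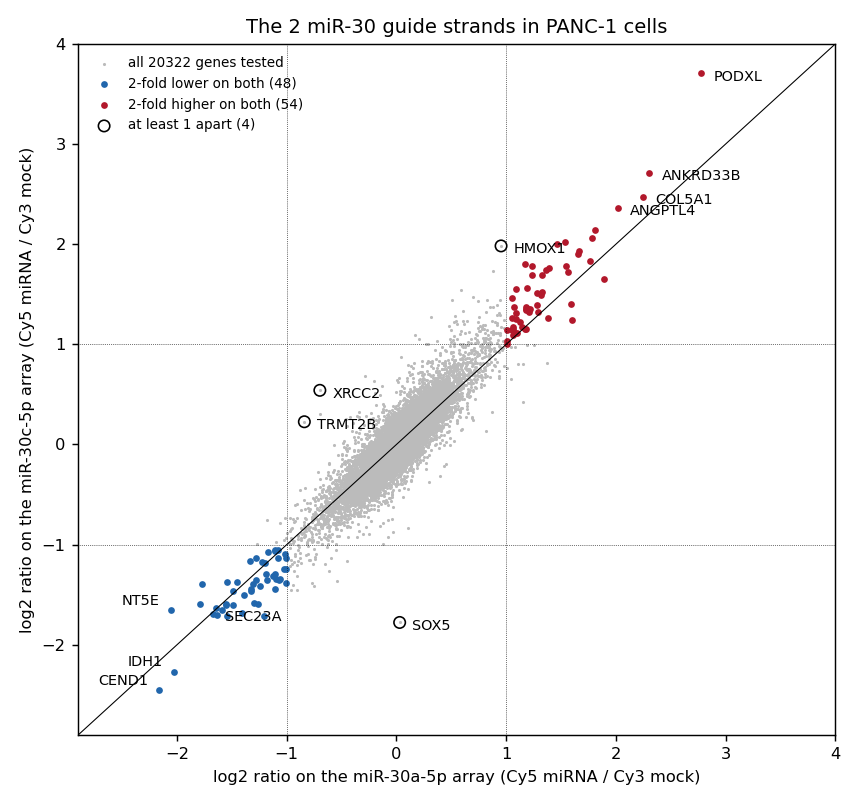
Log2 ratio (Cy5 miRNA over Cy3 mock) of each of 20322 genes on the miR-30c-5p array (vertical axis) against the miR-30a-5p array (horizontal axis), with the diagonal as a solid line and 2-fold limits dotted. The 48 genes 2-fold lower on both arrays are blue, the 54 genes 2-fold higher on both are red, and rings mark the 4 genes at least 1 apart, of which SOX5 lies farthest from the diagonal.

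The miR-30c-5p array had the wider changes. Its log2 ratios had an SD over genes of 0.295 against 0.248 on the miR-30a-5p array, and it had 89 genes 2-fold lower and 156 higher against 55 and 64. Of the 48 lower genes 33 were farther from 0 with miR-30c-5p, and of the 54 higher genes 47 were. Pearson's r across genes was 0.886, as a description only, since genes are not replicates.

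Among the lowest genes were enzymes, trafficking proteins and parts of the cytoskeleton. CEND1, which promotes cell cycle exit in neural cells, was lowest, at -2.46 and -2.17. On the miR-30c-2-3p array it stood at -2.48 as well, while the other 5 arrays lay between -0.14 and 0.50. IDH1, the cytosolic isocitrate dehydrogenase that makes NADPH, was at -2.27 and -2.03 (mean -2.15, standard error 0.07, adjusted p = 0.000243 by limma), or 4.44-fold lower. Its scanned intensities were 647 for mock and 162 for miRNA on the first array and 632 and 172 on the second, so the channels did not overlap, and the other 6 arrays ranged from -0.55 to 0.90. Its probe lies at chr2:209101326-209101385 on hg19, minus strand. SEC23A, a coat protein of vesicles that leave the endoplasmic reticulum, was at -1.69 and -1.68 (its probe is at chr14:39501669-39501728 on hg19, minus strand). All of the other 6 arrays lay on the far side of 0 for SEC23A, between 0.15 and 0.68.

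TWF1 (twinfilin, an actin monomer binding protein) was at -1.72 and -1.55, and the other 6 arrays reached no lower than -0.60. VIM was at -1.63 and -1.65 and is one of the brightest genes in these cells. Its scanned intensities were 33720 for mock and 18190 for miRNA on the first array and 39760 and 20040 on the second. Under median centring its mean was -0.97, short of 2-fold. VIM was also low on both passenger arrays, at -1.35 and -0.72. NT5E, the cell surface 5′-nucleotidase CD73, was at -1.66 and -2.06, but its other detected probe had a mean of only -0.05. STEAP1 (a metalloreductase, -1.59 and -1.79) had a second probe at -1.26, and KDELC2 (POGLUT3, a protein O-glucosyltransferase, -1.71 and -1.63) had one at -0.47. PDCD2L was at -1.65 and -1.59 and the transporter-like gene SLC35F3 at -1.39 and -1.78. KDELC2 was lower with miR-30a-3p, at -1.93, while STEAP1 (-1.56 with miR-139-3p) and PDCD2L (-1.55 with miR-30c-2-3p) came close to the guide arrays on 1 array of another miRNA. SLC35F3 ran from -2.87 with miR-30a-3p to 1.43 with miR-30c-2-3p.

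The highest genes were led by PODXL (podocalyxin, a sialomucin of the cell surface), at 3.71 and 2.77. Its scanned intensity rose from 269.7 to 5852 on the first array and from 608 to 5977 on the second. The probe is at chr7:131185135-131185194 on hg19, minus strand. The mean was 3.24 with a standard error of 0.20, or 9.45-fold (adjusted p = 0.000554, limma), and the other 6 arrays were all below 0, from -1.49 to -0.29. ANKRD33B, an ankyrin repeat gene, was at 2.71 and 2.30, with the other 6 arrays between -0.23 and 0.07. Its second detected probe had a mean of 0.27. COL5A1, a chain of type V collagen, was at 2.48 and 2.24 by its brightest probe, while its 3 detected probes ranged from 0.06 to 2.36.

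ANGPTL4, a secreted inhibitor of lipoprotein lipase, was at 2.36 and 2.02, against -1.67 to 1.29 elsewhere. ZNF469 was at 2.14 and 1.81, ARID3B at 2.07 and 1.78, and GATSL3 (CASTOR1, an arginine sensor for mTORC1) at 1.93 and 1.66, with 1.86 on the miR-143-3p array. ANKRD46 was at 1.83 and 1.76, but on the miR-30c-2-3p array it was higher still, at 2.17. DUSP5, a phosphatase of ERK, was at 2.02 and 1.53. CTGF (CCN2, a matricellular protein), which is often cited as a target of this family, was higher, at 1.90 and 1.66, with the other 6 arrays from -0.12 to 0.75.

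Several higher genes outside the 10 highest, named after their values were seen, encode parts of the contractile apparatus or the matrix. They were CALD1 (caldesmon) at 1.66 and 1.89, MYL9 (myosin light chain) at 1.69 and 1.33, TPM1 (tropomyosin) at 1.55 and 1.09 and LAMC1 (a laminin chain) at 1.46 and 1.05. ACTL8, counted among the 48 lower genes, was not well above background in Cy5 on either guide array. By its brightest probe it was at least 2.01-fold lower, and that probe lay between -1.11 and -0.78 on all 8 arrays. Its other detected probe had a mean of 0.08.

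**Figure D2:**
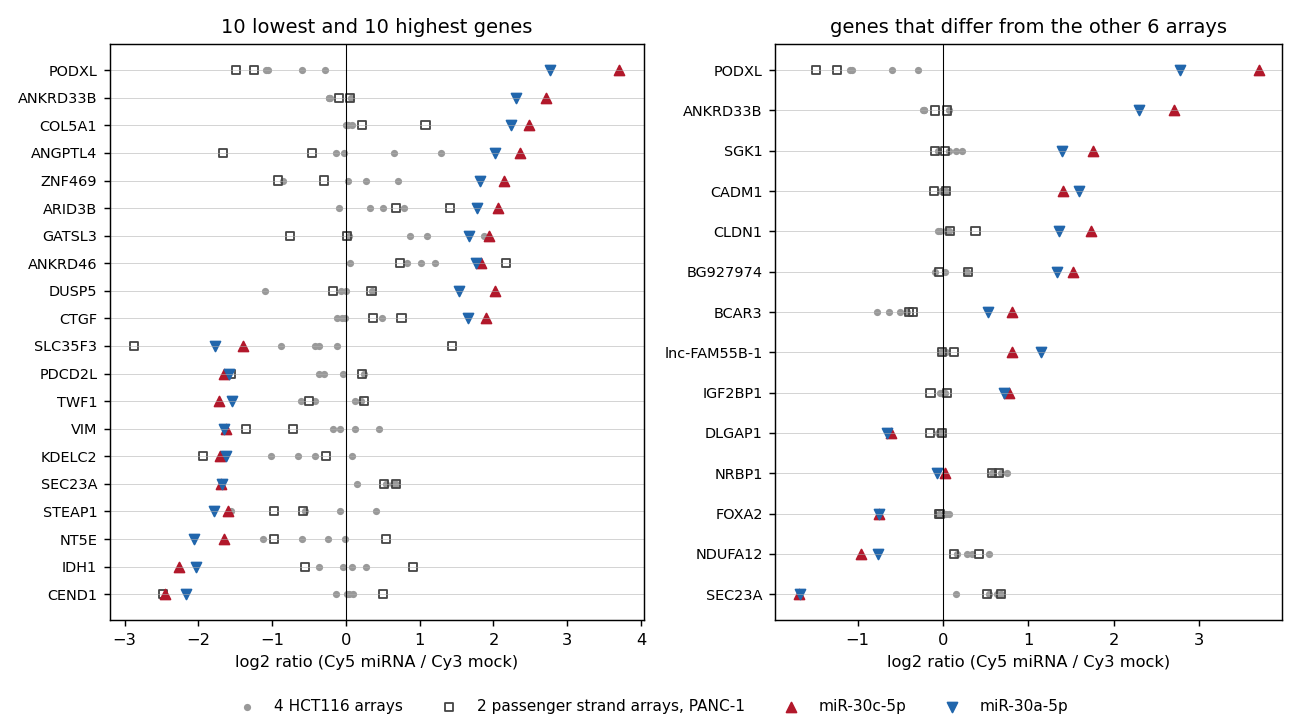
Log2 ratio (Cy5 miRNA over Cy3 mock) on all 8 arrays for the 10 lowest and 10 highest genes (left) and for the 14 genes that differed from the other 6 arrays by limma (right). Triangles are the guide arrays, grey points the 4 HCT116 arrays and open squares the 2 passenger strand arrays, and for PODXL and SEC23A the triangles stand on the other side of 0 from every other array.

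To separate what was particular to the guide strands from what any array of this design showed, the guide arrays were compared with the other 6. All arrays have the same dye orientation and a mock without miRNA, so an effect they share is subtracted. Both guide arrays lay below all other 6 for 32 of the 48 lower genes, against 5.23% of all genes tested, and above all other 6 for 43 of the 54 higher genes, against 7.41% of all genes. Since those genes were chosen for being extreme on the guide arrays, these counts describe them and test nothing. In the limma fit of 2 against 6 arrays, 5 genes were lower (0.0246%) and 9 higher (0.0443%) at an adjusted p under 0.05. At an unadjusted p under 0.05 there were 629 and 886. These calls rest in part on HCT116 arrays that did not measure the gene: FOXA2, DLGAP1, IGF2BP1, lnc-FAM55B-1, CLDN1 and CADM1 were not well above background in any channel of the 4 HCT116 arrays. Among genes well above background in a channel on all 8 arrays, 1 was lower, SEC23A (adjusted p = 0.00402), and 3 were higher, ANKRD33B (0.0017), SGK1 (0.013) and PODXL (0.013).

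All 14 are named here, although most fell outside the rule for named genes. The lower genes were SEC23A, NDUFA12, FOXA2, NRBP1 and DLGAP1. SEC23A differed by -2.22 (standard error 0.14, adjusted p = 0.00347 in the limma fit). NDUFA12, a subunit of respiratory complex I, was at -0.96 and -0.76 against 0.13 to 0.54 on the other arrays (adjusted p = 0.0311). FOXA2, a transcription factor of endoderm and pancreas, was at -0.75 on both, while the other 6 arrays lay between -0.05 and 0.06, of which the 2 passenger arrays measured it. NRBP1 itself stood near 0 with the guide strands, at 0.02 and -0.07, and was called because all other 6 arrays were high, from 0.57 to 0.75. DLGAP1 was at -0.62 and -0.65, and its Cy5 channel was well above background on 1 of the 2 guide arrays, so the size of its difference follows the background correction, from -0.59 to -1.21 without correction, -1.94 with an offset of 1 and -3.24 by the scanner log ratio.

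The higher genes were PODXL (difference 4.20, standard error 0.36, adjusted p = 0.0134), ANKRD33B, SGK1, CADM1, CLDN1, BG927974, BCAR3, lnc-FAM55B-1 and IGF2BP1. SGK1, a serum and glucocorticoid induced kinase, was at 1.76 and 1.39 against -0.09 to 0.22 elsewhere. CADM1, a cell adhesion molecule, was at 1.41 and 1.59 against -0.11 to 0.04 (adjusted p = 0.00112). Its second detected probe had a mean of 0.45, and the difference from the other arrays was 1.51 by the brightest probe and 0.99 by the median over probes. CLDN1 (claudin-1, of tight junctions) was at 1.74 and 1.36 against -0.06 to 0.38. BCAR3, an adaptor of integrin signalling, was above 0 with the guide strands (0.81 and 0.52) and below 0 on all other 6 arrays (-0.78 to -0.35). IGF2BP1, an RNA-binding protein, was at 0.77 and 0.72 against -0.15 to 0.05. BG927974 and lnc-FAM55B-1 had no symbol in the gene table used. On hg19 the BG927974 probe (chr6:132269645-132269704) lies near that of CTGF (chr6:132270130-132270189), on the opposite strand. The lnc-FAM55B-1 probe (chr11:115045985-115046044) likewise lies near that of CADM1 (chr11:115044427-115044486). Whether the members of these pairs vary independently was not tested. Set against the 2 other PANC-1 arrays alone, no gene passed the limma fit, with the smallest adjusted p at 0.198 and 1361 lower and 1296 higher at an unadjusted p under 0.05. With the precursor (miR-30c or miR-30a) as a block in those 4 arrays, again none passed, and the smallest adjusted p was 0.47. With 1 guide array left out, CADM1 and ANKRD33B passed either way.

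The sequence of the probes was then searched for the seed. A messenger RNA that pairs with the seed holds TGTTTAC, the complement of bases 2 to 8, or GTTTACA, the complement of bases 2 to 7 followed by A, and these overlap by 6 letters. In the strand of the probe, 174 of the 20322 genes (0.856%) had a match in their probe of 60 bases. Of the 48 lower genes 8 did (16.7%), and of the 54 higher genes 1 did (1.85%), which was CALD1. The reverse complement was in the probes of 159 genes (0.782%), of which 0 were among the 48. The windows of 28 bases that follow are shown because they hold the matches in the lower genes, with the match in capitals and the position of the whole probe on hg19.

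STEAP1, chr7:89794004-89794063, plus strand: ttcccagttgtagaattacTGTTTACAc

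SAP30, chr4:174298478-174298537, plus strand: ggatgttaacacTGTTTACtgttttttc

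AVEN, chr15:34158680-34158739, minus strand: gaccagccaGTTTACAagcatgtctcaa

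MZT1, chr13:73282634-73282693, minus strand: gagaagggatcgTGTTTACAgaggactt

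RARG, chr12:53604565-53604624, minus strand: tttattagctttTGTTTACAccgtggaa

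PPIL3, chr2:201735997-201736056, minus strand: catccttctgctTGTTTACAactatgat

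LOC643454, chr1:214656067-214656126, minus strand: ttaccatgcagtTGTTTACcaaaaatgg

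The windows in STEAP1, MZT1, RARG and PPIL3 hold both letter strings as a run of 8. The genes with a match were named after their values were seen. SAP30 (a subunit of the SIN3 histone deacetylase complex) was at -1.60 and -1.49, MZT1 (of the gamma-tubulin ring) at -1.35 and -1.28, AVEN (an inhibitor of caspase activation) at -1.39 and -1.31, RARG (a retinoic acid receptor) at -1.24 and -1.02, and PPIL3 (a cyclophilin) at -1.14 and -1.01. MTDH, at -1.29 and -1.11, was the other lower gene with a match. ELMOD2 had a match only in a second probe, and that probe stood at -0.22 and -0.27 while its brightest probe was 2-fold lower.

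Over all genes with a match in the probe, the median log2 ratio was -0.08 on the miR-30c-5p array and -0.06 on the other guide array, against 0.01 on both arrays for the 20148 genes without. Of the 174 genes, 97 (55.8%) were below 0 on both arrays, compared with 35.2% of the others. The test called 60 of the 174 lower (34.5%) and 15 higher (8.62%), against 15.1% and 17.7% of the genes without a match. A probe covers only a stretch of a transcript, so a gene without a match in its probe may hold the letters elsewhere.

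**Figure D3:**
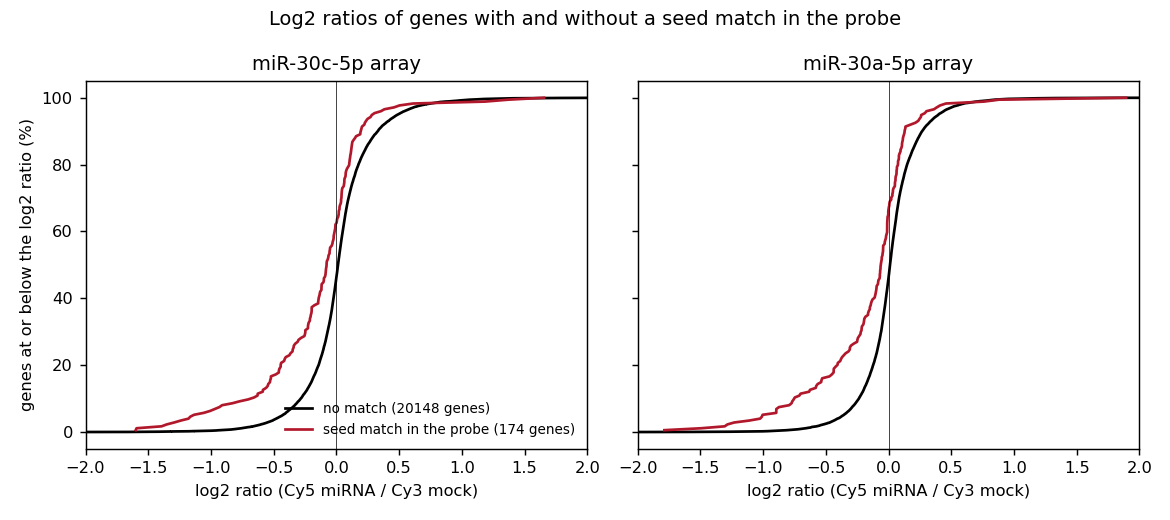
Cumulative percentage of genes (vertical axis) at or below each log2 ratio (horizontal axis) on the miR-30c-5p array (left) and the miR-30a-5p array (right), for 174 genes with a seed match in the probe (red) and 20148 genes without (black). On both arrays the red line lies to the left of the black line below 0, with medians of -0.08 and -0.06 against 0.01.

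Lists of genes by function were described next, by counts of genes called by limma and by medians, beside 15.3% lower, 17.6% higher and a median of 0.01 over all genes tested. Under median centring 530 of the 20322 genes were called lower and 9995 higher, and the median of all genes was 0.19. The counts of lists under that setting are to be read beside those. The list of genes known as targets of miR-30 guide strands had 41 members tested, of which 21 were lower, 6 higher and 14 not called (median -0.23). Under median centring 13 were lower and 17 higher, and the median was 0.08 against 0.19 for all genes. Of its members 8 were 2-fold lower on both arrays: IDH1, NT5E, VIM, TWF1, GALNT7, GNAI2, AVEN and MTDH. GALNT7 (an enzyme that starts O-glycans) was at -1.60 and -1.56, and GNAI2 (an inhibitory G protein subunit) at -1.50 and -1.39. Of smaller size, LIN28B, which blocks let-7 maturation, was at -0.90 and -0.87, and EED, a subunit of the Polycomb repressive complex, at -0.88 and -0.78. BECN1 (beclin 1, which starts autophagosomes) was at -0.62 and -0.51.

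Other members of that list did not go down. SNAI1, the repressor of E-cadherin, was at 0.12 and -0.06, the calcineurin subunits PPP3CA and PPP3R1 were between -0.10 and 0.02, and TNRC6A, a partner of Argonaute, was at -0.04 and -0.11. Besides CTGF, the higher members included ADAM19 (1.23 and 0.61), PRDM1 (1.04 and 0.80), P4HA1 (0.38 and 0.37) and DNM1L (0.32 and 0.40).

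After loess, all 30 members of the mitosis list were below 0 on both arrays, 26 were called lower and 0 higher, and the median was -0.39 on each array. Under median centring 9 of the 30 were below 0 on both, 2 were called lower and 5 higher, and the median was 0.05 against 0.19 for all genes, so the direction against mock depended on the scaling while the list stayed below the median of all genes by 0.14. CCNB2 (a cyclin of mitosis) was at -0.82 and -0.84, KIF11 (the kinesin that separates spindle poles) at -0.76 on both, CCNB1 at -0.60 and -0.69, and BIRC5 (survivin) at -0.59 and -0.53. None of the 30 reached 2-fold on both arrays. CCNB2, KIF11 and CCNB1 each went lower on at least 1 of the other 6 arrays, to -0.95, -0.85 and -1.25. Measured against the mean of the other 6 arrays, the median of the mitosis list was -0.17, so that part of the shift was shared. The list of DNA replication had 12 of 30 members lower and 4 higher (median -0.04), and 2 lower and 19 higher under median centring. It ran from RRM2, a subunit of ribonucleotide reductase at -0.74 and -0.97, to CCNE1 (cyclin E1) at 1.20 and 0.92.

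Collagens and the enzymes that process them were mostly higher: 17 of 25 were called higher and 3 lower, with a median of 0.46, and 20 higher and 1 lower under median centring. COL7A1 was at 1.73 and 0.88, PLOD2 (a lysyl hydroxylase) at 1.17 and 1.15, COL4A2 at 1.06 and 0.49 and COL5A2 at 0.92 and 0.50. COL13A1 was the lowest, at -0.76 and -1.18. Of 18 TGF-beta responsive genes 13 were higher and 1, ID1, lower (median 0.32). PMEPA1 was at 1.37 and 1.18 and the receptor TGFBR2 at 1.04 and 0.81. Both PMEPA1 and TGFBR2 were higher still on 1 of the other 6 arrays, at 1.80 and 1.52.

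Epithelial markers were higher for 8 of 12 members and lower for 2 (median 0.33). Besides CLDN1, KRT18 was at 1.25 and 1.09, KRT8 at 0.62 and 0.68, CLDN4 at 0.82 and 0.42 and CDH1 (E-cadherin) at 0.29 and 0.23. KRT19 and CLDN7 were the lower ones after loess. Under median centring 10 epithelial markers were higher and 0 lower. Mesenchymal markers had 2 of 9 members lower, VIM and THY1, and 2 higher, SPARC (0.66 and 0.93) and MMP2 (0.36 and 0.59). The transcription factors ZEB1 and SNAI2 stood at -0.15 and -0.14 and at 0.04 and 0.08 and were not called. Under median centring 1 of the 9 mesenchymal markers was lower and 5 were higher.

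Autophagy genes went both ways after loess, with 4 of 22 lower and 9 higher, against 1 lower and 15 higher under median centring. ULK1, the kinase that starts autophagy, was at 1.78 and 1.23, GABARAPL1 at 1.04 and 0.73 and SQSTM1 (the receptor p62) at 1.14 and 0.50. ATG5, ATG3 and ATG10 were lower along with BECN1. Of 10 GalNAc transferases 4 were lower, GALNT7, GALNT1 (-0.97 and -0.77), GALNT2 (-0.45 and -0.41) and GALNT14, and 1 was higher, GALNT6 (0.44 and 0.35). Of 10 genes of calcineurin and NFAT 5 were lower and 1 higher, none beyond -0.43. For both lists the direction against mock depended on the scaling. Under median centring 2 GalNAc transferases were lower and 5 higher, and 0 genes of calcineurin and NFAT were lower and 4 higher. Among 11 NADPH-producing enzymes, IDH1 was far from the rest. Its mitochondrial relative IDH2 was at 0.11 on both arrays and was not called. The next lowest were MTHFD1, of folate metabolism, at -0.50 and -0.45, and NNT at -0.59 and -0.29. As the lists were written with earlier results of these data known, the place of IDH1 in its list tests nothing.

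For the remaining lists the called members were 12 higher and 3 lower of 23 p53 targets, 9 higher and 1 lower of 16 YAP targets, 10 higher and 2 lower of 19 immediate early genes, and 9 higher and 3 lower of 20 genes of ATF4 and the unfolded protein response. There were 10 higher and 4 lower of 25 genes of sterol and fatty acid synthesis, and 2 higher and 8 lower of 25 interferon response genes. Under median centring 14 interferon response genes were higher and 1 lower, so the direction against mock depended on the scaling. Integrins had 2 higher and 2 lower of 13, and the silencing machinery 6 higher and 2 lower of 16, with DICER1 at 0.70 and 0.62. The 14 reference genes had 5 in each direction (median -0.03). Against the mean of the other 6 arrays, the median of the p53 targets turned from 0.25 to -0.04, and that of DNA replication from -0.04 to 0.27, while the miR-30 targets (-0.15), collagens (0.42) and epithelial markers (0.69) kept the sign of their medians.

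**Figure D4:**
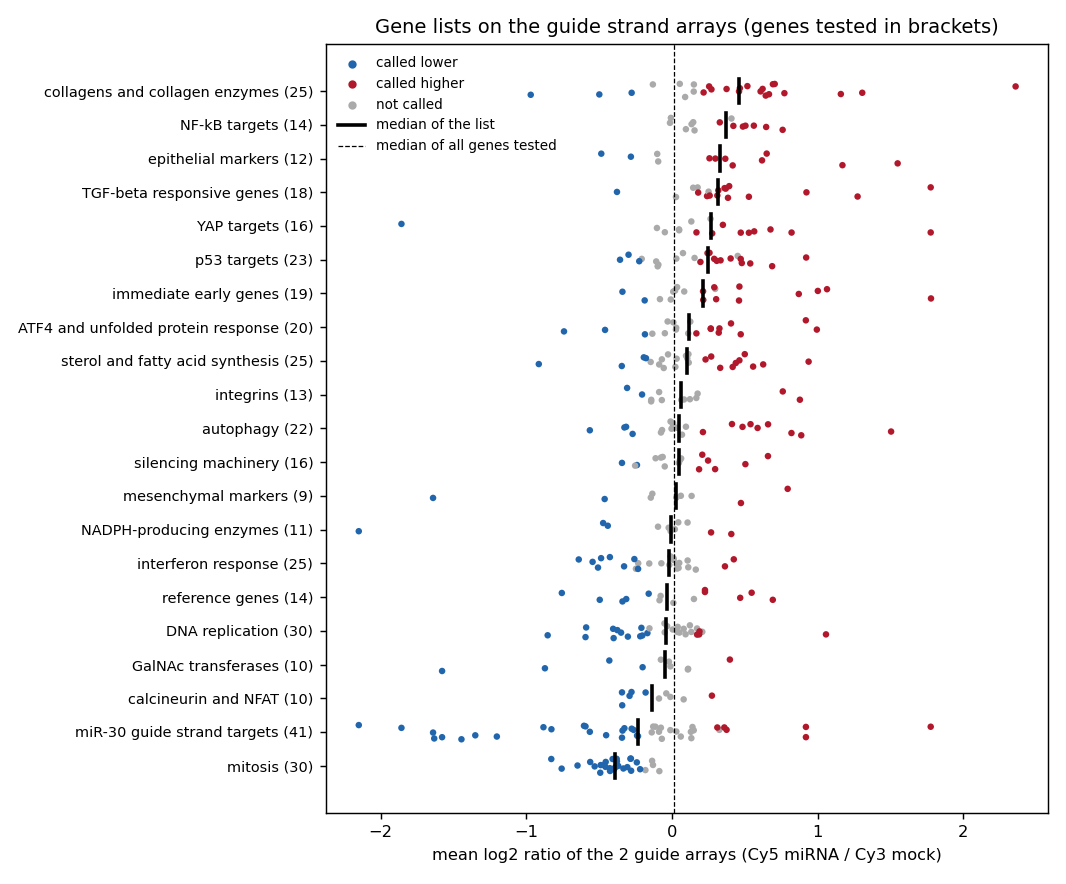
Mean log2 ratio of the 2 guide arrays (horizontal axis) for each tested gene of 21 lists, reference genes included, ordered by the median of the list (black bars). Blue and red points were called lower and higher by limma and grey points were not called; after loess the mitosis list lies wholly below the dashed median of all genes (19 of 30 did so on both arrays under median centring), and the collagen list has the highest median, 0.46.

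The strands of the 2 miRNAs differ past base 12, and genes that differed between the arrays were therefore listed with both channels. With 1 array per miRNA there is no test of such a difference. The difference, miR-30c-5p minus miR-30a-5p, had an SD over genes of 0.137 and lay between -0.336 and 0.387 for the middle 98% of genes. It was at least 1 for 3 genes (0.0148%), XRCC2, TRMT2B and HMOX1, and at most -1 for 1 gene (0.00492%), SOX5. SOX5 and TRMT2B fell outside the rule for named genes and were chosen after their values were seen.

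SOX5, a transcription factor of neural and cartilage cells, was at -1.78 and 0.03. Its Cy5 levels were close, at 5.79 and 5.85 on the log2 scale. The difference lay in Cy3, where the mock level was 7.57 on the miR-30c-5p array and 5.82 on the miR-30a-5p array. On the 2 passenger arrays the mock level was 5.80 (miR-30c-2-3p) and 5.87 (miR-30a-3p), so the high mock signal was on 1 array of 4, and Cy3 was well above background on only 1 of the 2 guide arrays.

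HMOX1 (heme oxygenase 1, of the response to oxidative stress) was at 1.98 and 0.95. Its mock levels were close, 11.48 and 11.59, and the Cy5 levels were 13.46 and 12.54, so here the difference lay in the miRNA channel. It was also called higher over both arrays (mean 1.47, adjusted p = 0.00539, limma). XRCC2, of homologous recombination, was at 0.54 and -0.70, with the channels differing in opposite directions (Cy5 by 0.69 and Cy3 by -0.55). TRMT2B, a mitochondrial tRNA methyltransferase, was at 0.23 and -0.84, and its detected probes disagreed in sign.

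The same split by channel was made for all 32 genes at least 0.7 apart, 23 higher and 9 lower with miR-30c-5p; the examples were chosen after their values were seen. The larger part of the difference was in the mock channel for 15 of the 23 and for 8 of the 9. Across the 23, the median difference was -0.75 in Cy3 and 0.08 in Cy5. PODXL is an example: its Cy5 levels were 12.1 on both arrays, and its mock levels were 8.40 and 9.29. ATF3 (a stress transcription factor) was at 1.54 and 0.59 with Cy5 levels of 9.31 and 9.24 and mock levels of 7.77 and 8.65. Its 4 detected probes had means from 0.04 to 1.065, and the highest of the other 6 arrays was at 1.84. PTX3 (pentraxin 3) had mock levels of 6.56 and 8.55, and CCL2 (a monocyte attracting chemokine) of 8.72 and 10.7. By contrast COL7A1 and CTSZ had mock levels that differed by -0.011 and 0.018, and Cy5 levels higher by 0.84 and 0.87 with miR-30c-5p.

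The passenger arrays gave a second reading of the mock channel. For 28 of the 32 genes both mock levels were within 0.3 of the level on the passenger array of the same precursor. ATF3, for example, was at 7.73 and 8.61 there, PTX3 at 6.56 and 8.52 and CCL2 at 8.78 and 10.7. The exceptions were SOX5, lnc-CLGN-2, H19 and RNA5-8S5 (RNA5-8SN5). Over all genes tested, the mock channels of the 2 guide arrays were at least 2-fold apart for 38 genes, while those of the miR-30c-5p and miR-30c-2-3p arrays were so for 9 and those of the miR-30a-5p and miR-30a-3p arrays for 0. In the other pairings of a miR-30c array with a miR-30a array the count was 41 to 44, so the mock channels were closer within a precursor than between precursors in every pair, a description with no test. Among the lists, NF-kB targets had the largest median difference between the guide arrays: 7 of 14 were called higher and 0 lower, with list medians of 0.52 on the first array and 0.17 on the second. The median difference between the arrays for that list was -0.65 in the mock channel and -0.20 in Cy5. Collagens, with medians of 0.39 and 0.37, had a median difference of -0.01 in the mock channel and 0.07 in Cy5. Gene by gene, the median difference of their log2 ratios was still 0.15, against 0.41 for NF-kB targets and 0.003 over all genes.

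**Figure D5:**
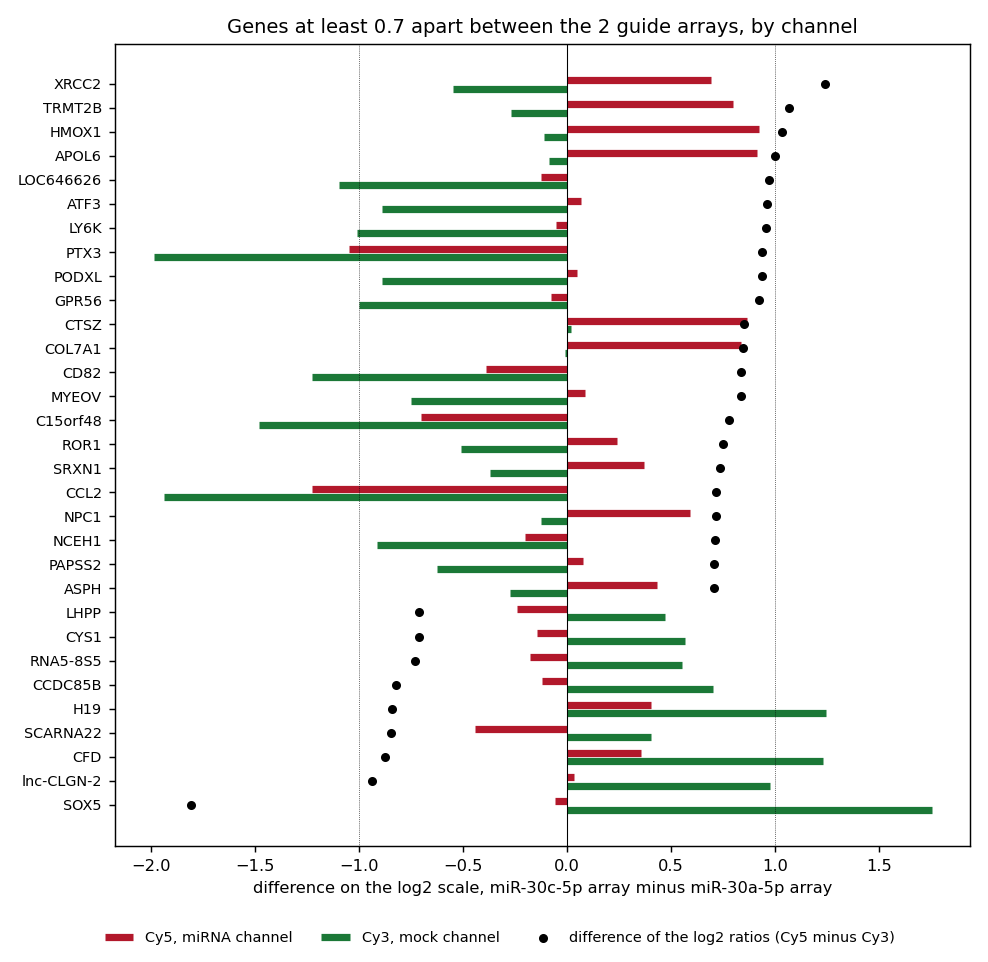
Difference on the log2 scale, miR-30c-5p array minus miR-30a-5p array, for 31 of the 32 genes at least 0.7 apart. Red bars are the Cy5 (miRNA) level, green bars the Cy3 (mock) level and black points the difference of the log2 ratios; the green bar is the longer one for 14 of the 22 genes drawn that were higher and 8 of the 9 that were lower with miR-30c-5p, PODXL and SOX5 among them.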

How the data were processed

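RNA was hybridised to 8 two-colour Agilent arrays. Per the file headers, Feature Extraction 11.5.1.1 gave the intensity of both channels for each spot, with local background, and the deposited log10 ratio of processed signals, used here after conversion to log2. Of 60901 spots other than controls per array (58201 probes), 44.5% to 48.6% were well above background, by channel, on the guide arrays, none was saturated, and 112 and 91 were outliers and left out. The number of arrays limits the precision. In R 4.3.3 with limma 3.58.1, background was corrected by normexp (offset 50) and log2 ratios were normalised by loess within the array. Channel levels were set to a common scale between arrays (Aquantile). The brightest probe stood for each gene, and genes needed that probe well above background in at least 1 channel on both guide arrays.

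The mean of 2 arrays was tested against 0, and the 2 against the other 6, by lmFit and eBayes with Benjamini-Hochberg adjustment over 20322 genes. Alternatives were other background corrections, the scanner log ratio, median centring, the median over probes, other filters, each replicate left out, and subtraction of the other 6 arrays or comparison with PANC-1 arrays alone. A precursor block in PANC-1 and a filter on signal on all 8 arrays were chosen after seeing the data. Named genes were the 10 lowest and 10 highest of those called, 2-fold on both arrays, with a symbol, above background in both channels, not outliers and with no probe of opposite sign, and up to 6 per direction at least 1 apart. Members of lists were named where their list is described. Symbols were updated through RefSeq accessions and synonyms: 15223 names matched and 1365 changed. The arrays, lists and tests were chosen with earlier results of these data known. A single slide and a single scan held all arrays, each line in its own column. Probe positions are on hg19. No exon or UTR annotation was used here. Values of a few single genes are not reported here; they remain in the counts and medians.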

Additional observations from a re-analysis of the deposited data

Results flagged for a closer look

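The guide arrays differed from the other 6 by the limma fit for 14 genes. The differences of the log2 ratios were -2.22 for SEC23A, -1.17 for NDUFA12, -0.75 for FOXA2, -0.66 for NRBP1 and -0.59 for DLGAP1, and 0.77 for IGF2BP1, 0.95 for lnc-FAM55B-1, 1.18 for BCAR3, 1.30 for BG927974, 1.47 for CLDN1, 1.51 for CADM1, 1.53 for SGK1, 2.61 for ANKRD33B and 4.20 for PODXL. The other arrays are of 6 different miRNAs in 2 lines, so their spread holds the effects of those miRNAs. NRBP1 was the exception in kind, since its guide arrays stood near 0 and the others did not. DLGAP1 and 5 others (FOXA2, IGF2BP1, lnc-FAM55B-1, CLDN1, CADM1) were not well above background on any of the 4 HCT116 arrays. Of the other 6 arrays only the 2 passenger arrays measured these genes, yet the fit also used the HCT116 ratios, which lay near 0. Within PANC-1 the differences kept their direction, from -2.28 for SEC23A to 4.61 for PODXL, with an adjusted p of 0.198 for both.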

How the results depend on the processing

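The 20 named genes kept their direction in all 200 values over 10 alternatives and lost the call in 17, all on subtraction of the mean of the other 6 arrays. Part of this was fixed by the naming rule. The rule set the direction in advance with either replicate left out and with the filter on both channels, and nearly so by the median over probes. Of the 160 values for the 14 genes that differed from the other 6, 0 turned and 94 lost the call. ANKRD33B lost it only against the 2 other PANC-1 arrays, where 0 genes were called lower and 0 higher with or without the precursor as a block. With signal required on all 8 arrays 1 gene was lower and 3 higher; this filter and the block were chosen after seeing the data. The counts depended more on the processing. Called lower and higher genes numbered 579 and 567 by the scanner log ratio, 530 and 9995 under median centring, and 5 and 9 after subtraction of the other 6 arrays. Genes 2-fold lower and higher on both arrays numbered 140 and 157 with an offset of 1, 210 and 275 by the scanner log ratio and 15 and 284 under median centring. There were 79 lower genes without background correction and 106 higher genes after subtraction. On 1 array alone there were 55 to 89 lower and 64 to 156 higher. Of the 48 lower genes, 15 were shared under median centring, 38 by the median over probes and 47 with the filter on both channels. Of the 54 higher genes, 53 were shared by the scanner log ratio and 40 by the median over probes.

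Genes at least 1 higher and 1 lower with miR-30c-5p numbered 10 and 6 without background correction, 54 and 30 with an offset of 1, 288 and 231 by the scanner log ratio, 9 higher under median centring, and 5 lower without a filter. The filter on both channels left 0 lower. The guide arrays were lower and higher than the other 6 for 1 and 5 genes without background correction, 3 and 3 with an offset of 1, and 2 and 4 by the scanner log ratio. The same counts were 3 lower under median centring, 3 lower with the filter on both channels and 14 higher without a filter. With 1 guide array left out they were 0 to 1 lower and 2 to 3 higher, the lone array being assumed to vary like the others, and at an unadjusted p under 0.05 at least 195 lower and 285 higher. The 2-array test has no value without a replicate. The median of genes with a seed match minus those without was -0.08, and became -0.13 without background correction, -0.17 with an offset of 1, -0.20 by the scanner log ratio and -0.0145 without a filter. Of 200 medians of lists, taken relative to all genes, 97 moved by more than the spread between the 2 arrays or changed sign from a value near 0. The p53 list (0.23) turned to -0.0444 on subtraction of the other 6 arrays and was 0.14 without replicate 1. Under median centring the miR-30 targets went from -0.25 to -0.11, mitosis from -0.40 to -0.14, integrins from 0.05 to -0.105 and DNA replication from -0.05 to 0.12, and without a filter collagens went from 0.45 to 0.24. The cause was not tested. Of the 20322 genes, 18291 had signal well above background in both channels. No paired analysis was possible by replicate number because the labels give none that the groups share.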
